A study of Mus musculus with 2 samples.

Results

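The RUNX family comprises the 3 genes Runx1, Runx2 and Runx3, which encode DNA-binding transcription factors, and Cbfb, which encodes their shared non-DNA-binding partner. Its members were taken by name, and their regions were the mm10 RefSeq gene spans with 10 kb on either side. These 4 of 49993 annotated genes held 148 of the 128737 peaks called in the WT library and 142 of the 128129 peaks called in the Tle4cKO library. Chromatin accessibility was measured by ATAC-seq, which marks open DNA by transposase insertion, in colonic macrophages of C57BL/6 mice, sorted without Siglec-F, low for Ly6C and positive for CD64. The animals were untreated males of 18.9 weeks. WT mice carried Lyz2-Cre alone, and Tle4cKO mice carried Tle4f/f and Lyz2-Cre, so that Cre is present in both genotypes. The Lyz2 promoter drives Cre in macrophages and also in monocytes and neutrophils. Cells of 2 mice were combined for either genotype, which gave 1 library each. No difference below therefore has a replicate check, no test between genotypes was possible, and intervals cover counting error only.

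RUNX proteins bind DNA through the Runt domain, and CBFB raises their affinity without touching DNA. They act as activators or repressors depending on the partner, and a conserved motif at their carboxy terminus recruits Groucho/TLE corepressors, the family to which TLE4 belongs. RUNX1 directs the formation of blood stem cells and acts with PU.1 in the myeloid lineage, RUNX2 is the master regulator of bone formation, and RUNX3 works in cytotoxic T cells, innate lymphocytes and some mononuclear phagocytes. The RUNX genes are known to use a distal and a proximal promoter, called P1 and P2, and the P1 promoters carry RUNX sites of their own.

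The annotated starts showed a shared sequence feature that the choice of the genes did not use. The RefSeq promoter table (GRCm38.p6, the assembly of mm10; 250 bases before to 50 bases after a start) held all 4 genes, with 2 starts for Runx1, 1 for Runx2, 2 for Runx3 and 1 for Cbfb. The table is not complete, and for Runx2 only this first start was analysed here, not a P2 start. The windows were searched on both strands for the core RUNX letters TGTGGT and TGCGGT, which read ACCACA and ACCGCA on the opposite strand. Matches on 1 strand can share an end base, and such overlapping matches were each counted. Of all 32851 windows of this length, 22.4% held at least 1 match and 2.86% at least 2. The first start of each RUNX gene held a pair of ACCACA matches separated by 2 bases. In the Runx1 window it lay at positions 29 and 37 after the start, in the Runx2 window at 24 and 32 after it, and in the Runx3 window at -134 and -126 before it, each position being the first base of a match, counted from 1 at the start. Matches starting at most 10 bases apart, a limit chosen after these sequences were seen, were found in 70 windows, or 0.213%. The Runx2 window held 2 more matches. The second starts of Runx1 and Runx3 and the start of Cbfb held 0. These are matches of letters, not measured binding sites. The short stretches with the matches in capitals, each 5′ to 3′ on the gene's strand, were:
Runx1, chr16:92826029-92826050, minus strand: aacaACCACAgaACCACAagtt
Runx2, chr17:44814579-44814608, minus strand: aacaACCACAgaACCACAagTGCGGTgcaa
Runx2, chr17:44814698-44814711, minus strand: acaaACCACAtgat
Runx3, chr4:135120507-135120528, plus strand: ctcaACCACAgaACCACAaggc

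The surrounding sequence separated the first from the second start of Runx1, and it is shown because each of these windows lay in one of the strongest peaks of the locus. The first window of Runx1 had 45.0% G and C with 2 CpG dinucleotides, and the second had 69.0% with 35. Runx2 had 45.3% with 2, the first window of Runx3 63.7% with 8, the second 77.3% with 45, and Cbfb 69.7% with 30. The median over all windows was 52.7% with 7. The 250 bases before 3 of these starts are, with capitals marking RUNX letters:
Runx1 first start, chr16:92826075-92826324, minus strand: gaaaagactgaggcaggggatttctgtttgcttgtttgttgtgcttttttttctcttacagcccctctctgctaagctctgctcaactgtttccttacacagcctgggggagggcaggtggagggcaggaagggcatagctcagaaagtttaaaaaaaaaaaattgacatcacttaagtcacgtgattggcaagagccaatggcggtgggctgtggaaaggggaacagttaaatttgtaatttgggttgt
Runx1 second start, chr16:92697330-92697579, minus strand: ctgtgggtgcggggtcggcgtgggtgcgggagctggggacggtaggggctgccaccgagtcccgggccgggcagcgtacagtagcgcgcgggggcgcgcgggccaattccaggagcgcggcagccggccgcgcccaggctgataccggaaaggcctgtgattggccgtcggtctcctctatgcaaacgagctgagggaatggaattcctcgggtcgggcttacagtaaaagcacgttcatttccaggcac
Runx3 first start, chr4:135120395-135120644, plus strand: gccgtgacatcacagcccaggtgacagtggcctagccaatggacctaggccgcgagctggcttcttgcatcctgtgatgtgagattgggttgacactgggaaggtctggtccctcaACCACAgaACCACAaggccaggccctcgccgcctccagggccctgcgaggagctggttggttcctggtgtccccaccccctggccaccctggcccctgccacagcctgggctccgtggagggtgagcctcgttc

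Every one of the 6 annotated starts lay inside a peak in both libraries. Among 21262 protein-coding starts of the table this held for 58.0% in WT and 57.0% in Tle4cKO. The pileup is the authors' whole-number signal at the summit of each peak. It was lower in Tle4cKO almost everywhere, with a median of 28 in the WT list and 20 in the Tle4cKO list, and how the libraries were scaled to each other is unknown. In a bulk library, fewer cells of a type and less accessible DNA per cell cannot be told apart. Ratios are therefore set beside the median ratio of peak pairs of like pileup in the same lists.

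At the first start of Runx1 (92826074) the pileup was 155 in WT and 126 in Tle4cKO, at the 94.4th and 94.9th percentile of their lists. The ratio of 0.813 (95% interval 0.637 to 1.04) includes the 0.795 of pairs of like pileup. The second start of Runx1 (92697329), 129 kb further along the gene, had 145 in WT and 120 in Tle4cKO, a ratio of 0.828 (0.644 to 1.06) beside 0.781. Both starts of Runx1 thus lay in peaks of similar height in each genotype, 3283 and 2620 bp wide in WT and 3002 and 2651 bp in Tle4cKO.

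Runx3 also had strong peaks at both starts. At its first start (135120645) the pileup was 180 in WT and 133 in Tle4cKO, with a ratio of 0.739 (0.586 to 0.930) beside 0.807. At its second start (135152545), 31.9 kb downstream, it was 146 and 112, with a ratio of 0.767 (0.594 to 0.988) beside 0.781. The Cbfb start (105170674) had 153 and 125, a ratio of 0.817 (0.640 to 1.04) beside 0.795.

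The single listed start of Runx2 (44814627) lay in a weak peak. The pileup there was 21 in WT and 12 in Tle4cKO, at the 40.3rd and 28.6th percentile, against a median of 145 and 114 over peaks at protein-coding starts. The ratio of 0.571 has an interval of 0.256 to 1.22, which includes the 0.737 of pairs of like pileup. A difference between the genotypes was thus not detectable at pileups this low. Its peak was 1155 bp wide in WT and 539 bp in Tle4cKO. The strong peaks of Runx2 lay inside the gene, and whether any of them is at its P2 start was not analysed here.

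**Figure D1:**
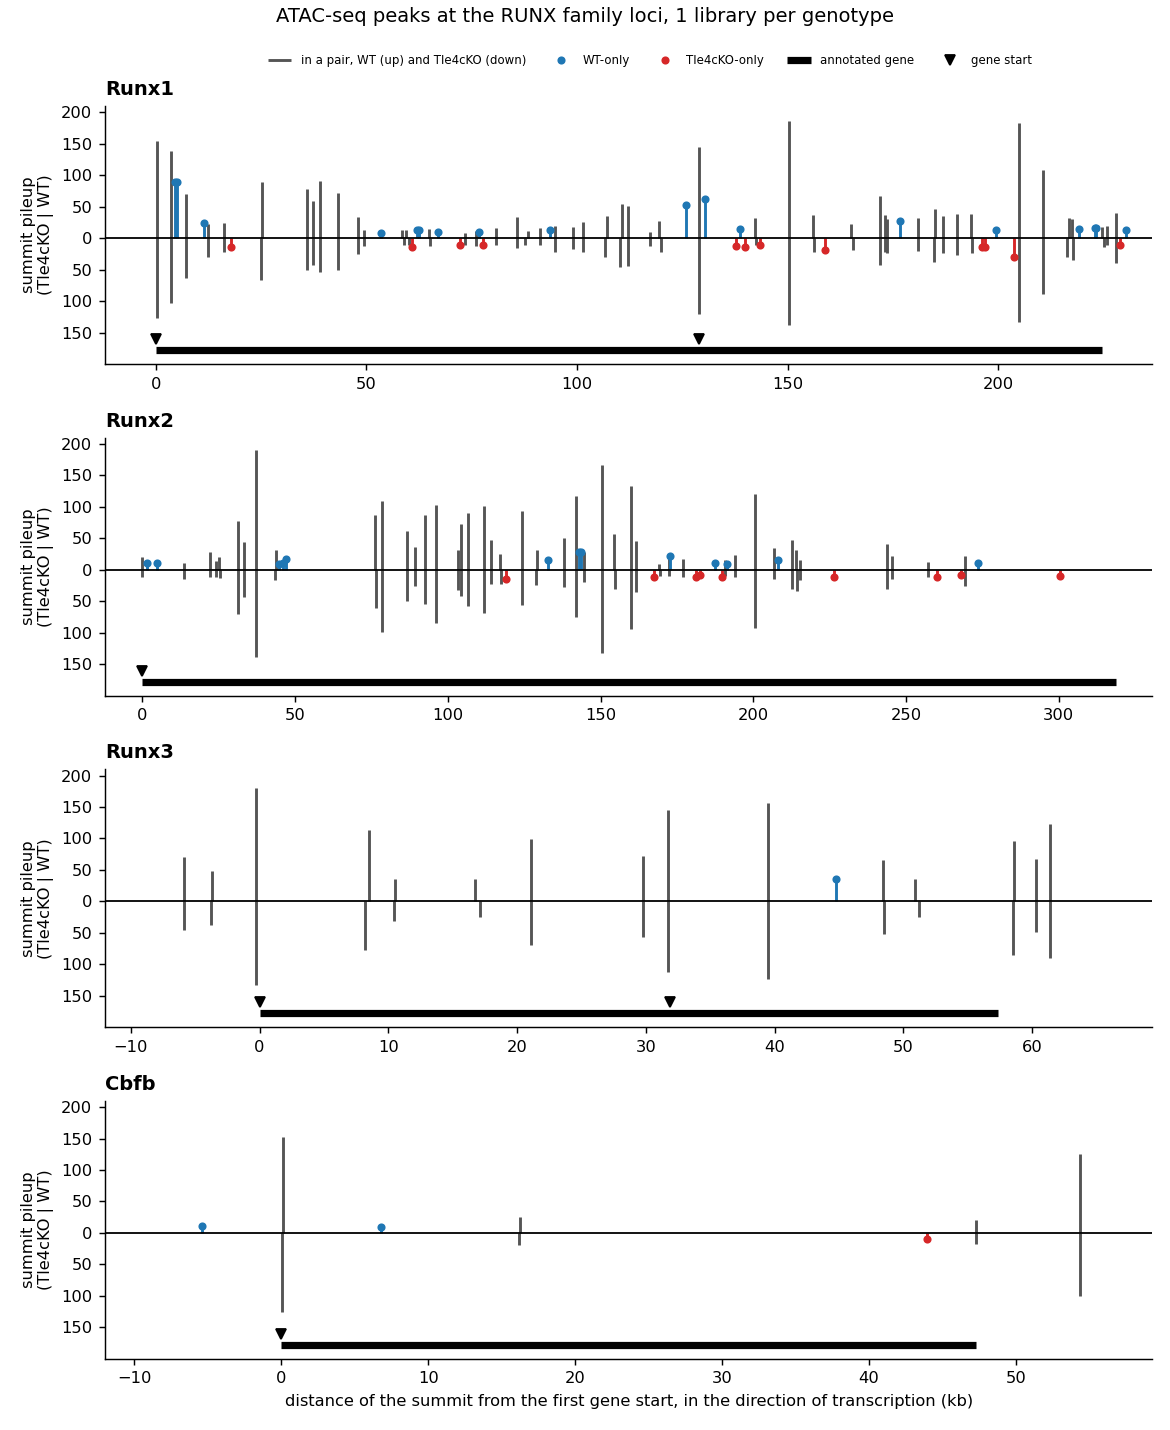
Summit pileup (vertical axis, WT upwards and Tle4cKO downwards) of the peaks at the 4 genes against the distance of the summit from the first gene start in kb, with paired peaks in grey and peaks found in 1 list in colour; 2 WT and 8 Tle4cKO peaks that overlap the other list without being in a pair are not drawn. The tall peaks of Runx1, Runx3 and Cbfb sit at the starts and in a few places inside or beside the genes, while the 1 listed start of Runx2, its first, carries a pileup of 21 and 12 and its P2 start is not marked.

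Across the loci, peaks were densest in Runx1, while the density in Cbfb was near the median of protein-coding genes. Runx1 (chr16:92601466-92826074) held 68 WT and 64 Tle4cKO peaks in its span and flanks, Runx2 (chr17:44495987-44814797) 57 and 57, Runx3 (chr4:135120645-135177990) 17 and 16, and Cbfb (chr8:105170674-105217989) 6 and 5. Per 100 kb this was 27.0 peaks per list for Runx1, 16.8 for Runx2, 21.3 for Runx3 and 8.17 for Cbfb. The median over 21896 protein-coding genes was 8.67. The density of Runx1 was above that of 97.0% of these genes, that of Runx3 above 90.0%, that of Runx2 above 79.4% and that of Cbfb above 48.1%. The Runx3 peaks were the highest as a group, with a median pileup of 70.0 in WT and 54.5 in Tle4cKO, against 28.5 and 21.0 for Runx1, 29.0 and 22.0 for Runx2, and 23.5 and 19.0 for Cbfb. Peaks of Runx1 covered 49.4 kb in WT and 47.5 kb in Tle4cKO, and their mean pileup was 43.3 and 32.0. For Runx2 these values were 44.4 and 37.3 kb with 46.6 and 33.9, for Runx3 17.7 and 16.0 kb with 83.3 and 65.0, and for Cbfb 6.10 and 5.28 kb with 57.8 and 54.2.

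Most peaks of the 4 genes were present in both genotypes. Peaks without a single base (1 bp) of overlap with the other library are called WT-only or Tle4cKO-only. Of the 148 WT peaks 34 were WT-only, 23.0% (95% Wilson interval 16.9% to 30.4%), and over all WT peaks the share was 27.1%. Of the 142 Tle4cKO peaks 22 were Tle4cKO-only, 15.5% (10.5% to 22.3%), and over all Tle4cKO peaks the share was 23.5%. Peaks in 1 list are mostly weak throughout these data, and the member peaks stood somewhat higher than their lists, with a median at the 54.5th percentile in WT and the 55.7th in Tle4cKO. The part of that height in the lower shares was not tested.

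The WT-only and Tle4cKO-only counts were 18 and 12 at Runx1, 13 and 9 at Runx2, 1 and 0 at Runx3, and 2 and 1 at Cbfb. The 0 of 16 at Runx3 allows a share of up to 18.8%, taken as 3 counts of the total. Each gene thus had more WT-only peaks, by a single peak at Runx3 and Cbfb and with a difference of 0 at Cbfb when flanks were left out. More WT-only peaks were also found at 45.2% of the 12413 annotated genes of any type with at least 10 peaks in both lists together. Such peaks were weak. Of the 34 WT-only peaks 24 had a pileup under 20, and of the 22 Tle4cKO-only peaks 21 did. At or above the median pileup of their own list were 7 WT-only peaks and 1 Tle4cKO-only peak, and all 8 are described next.

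The highest WT-only peaks lay in Runx1, beside strong peaks kept in both genotypes. Near the first start, 2 peaks with a pileup of 89 each lay 5.04 kb (chr16:92820928-92821133) and 4.64 kb (chr16:92821366-92821578) inside the gene. They were only 206 and 213 bp wide, near the smallest width in the lists of 200 bp. The nearest Tle4cKO peak, with a pileup of 103, lay 684 and 239 bp away. It is the partner of a WT peak of pileup 139 at chr16:92821775-92822749.

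Narrow WT-only peaks also lay around the second start of Runx1, here beside the peak at the start itself. WT-only peaks of pileup 62 (chr16:92695572-92695787, 216 bp wide) and 53 (chr16:92700135-92700341, 207 bp wide) lay on either side of the peak at that start. Their distances to the Tle4cKO peak there, of pileup 120, were 648 and 1050 bp. The 4 strongest WT-only peaks of Runx1 were therefore narrow neighbours of strong peaks kept in both genotypes.

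Runx2 had 2 neighbouring WT-only peaks of 200 bp each, with pileups of 28 (chr17:44671056-44671255) and 29 (chr17:44671386-44671585). The Tle4cKO peaks closest to them, of pileup 19 and 75, were 841 and 666 bp away. The 1 WT-only peak of Runx3, of pileup 36 (chr4:135164994-135165594), differed in kind. It was 601 bp wide and 3316 bp from the nearest Tle4cKO peak, and it lay 44.8 kb inside the gene. The strongest Tle4cKO-only peak, of pileup 30 (chr16:92622091-92622300), lay in Runx1, was 210 bp wide and stood 332 bp from a WT peak of pileup 184. The next Tle4cKO-only peak in height, also in Runx1, had a pileup of 19.

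The widths of the list-only peaks were set beside those of all list-only peaks. A width of at most 250 bp was found for 16 of the 34 WT-only peaks, 12 of them in Runx1, and for 8 of the 22 Tle4cKO-only peaks, 3 of them in Runx1. The WT-only median width was 271 bp and the Tle4cKO-only median 326 bp, against 322 and 267 bp over all list-only peaks of each library. When only peaks wider than 250 bp were counted, 18 WT-only and 14 Tle4cKO-only peaks were left. A pileup of at least 15 left 17 and 3, which is no equal cut, since pileups were lower in Tle4cKO throughout.

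**Figure D2:**
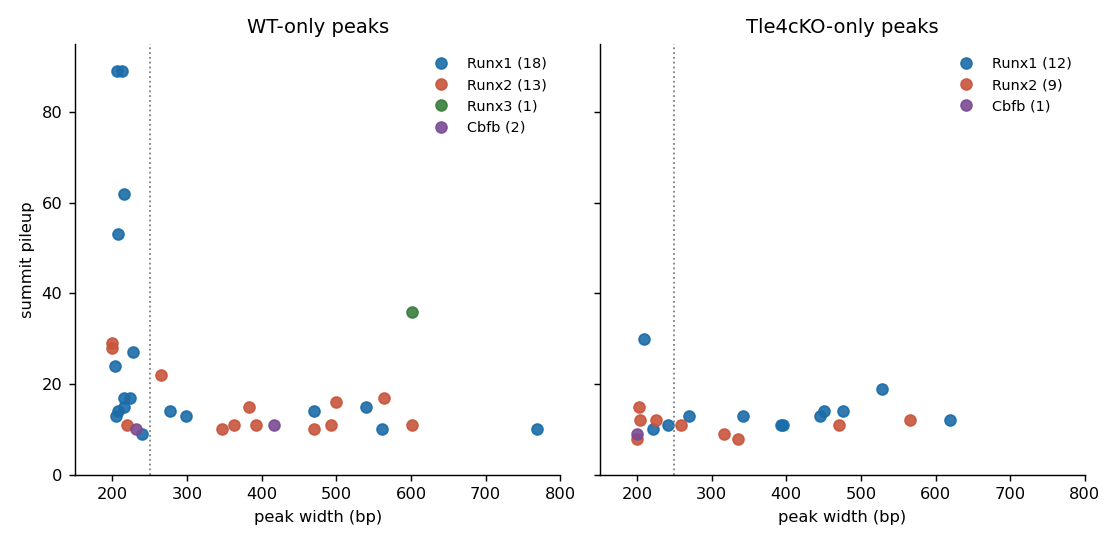
Pileup at the summit against peak width in bp for the 34 WT-only peaks (left) and the 22 Tle4cKO-only peaks (right), coloured by gene, with a dotted line at 250 bp. The 4 highest WT-only peaks, with pileups of 53 to 89, belong to Runx1 and are at most 216 bp wide, while all but 1 of the Tle4cKO-only peaks have a pileup under 20. Pileups were lower in Tle4cKO throughout, so heights in the left and right panels are not on an equal footing.

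Peaks kept in both genotypes were compared as pairs, each peak being the highest one overlapping the other. The 4 genes held 112 of the 92328 pairs of the lists. WT had the higher pileup in 101 of them and Tle4cKO in 8, and 3 were equal. Over all pairs 90.8% were higher in WT. The median Tle4cKO to WT ratio was 0.751 over the 112 pairs and 0.741 over all pairs. By gene it was 0.800 for Runx1, 0.696 for Runx2, 0.739 for Runx3 and 0.806 for Cbfb.

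The relative log2 ratio is the log2 of the Tle4cKO to WT pileup ratio minus the median of pairs of like summed pileup, so that 0 stands for the usual ratio at that height. Its median over the 112 pairs was 0.00, as it is over all pairs by construction, with 53 pairs above 0 and 54 below. It was 0.035 for Runx1 (26 above and 21 below), -0.079 for Runx2 (16 and 25), -0.010 for Runx3 (7 and 8) and 0.074 for Cbfb (4 and 0). The SD between pairs was 0.354 for Runx1, 0.383 for Runx2, 0.150 for Runx3 and 0.0798 for Cbfb, against 0.310 over all pairs.

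**Figure D3:**
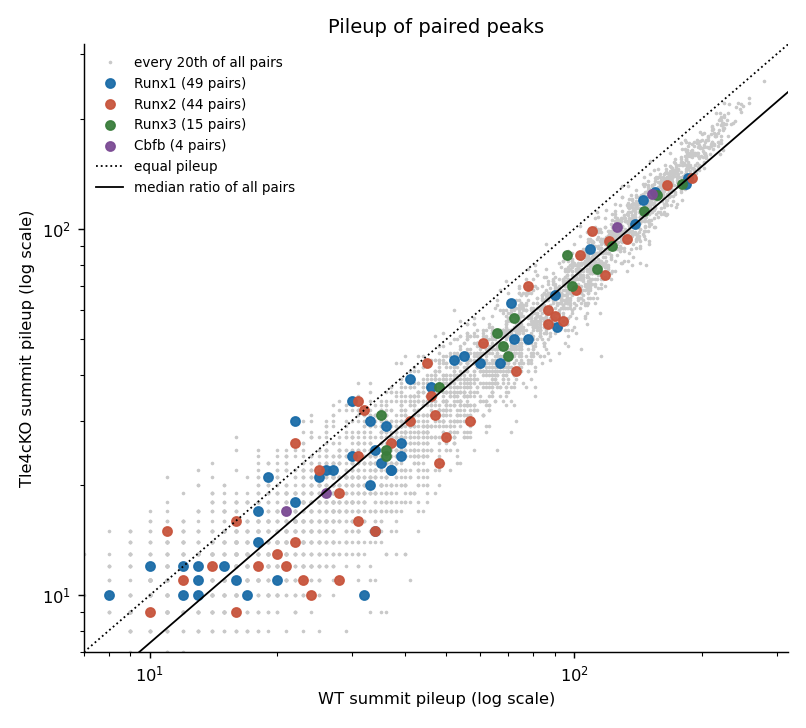
Tle4cKO against WT summit pileup of each pair on log scales, with the 112 pairs of the 4 genes in colour and every 20th pair of the whole lists in grey; the dotted line marks equal pileup and the solid line the median ratio of all pairs, 0.741. The members' pairs lie within the grey cloud, with 101 of 112 under the dotted line.

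Of the 112 pairs, 2 had a counting interval that left out the ratio of pairs of like pileup, 1 above it and 1 below it, both in Runx1. Over all pairs 0.683% lay above and 0.615% below. The higher pair, 12.4 kb inside Runx1 (chr16:92813488-92813877 in WT), reached 22 in WT and 30 in Tle4cKO, a ratio of 1.36 (0.761 to 2.48) beside 0.677. Its relative log2 ratio was 1.01, and the peak measured 390 bp in WT against 680 bp in Tle4cKO. The lower pair, 142 kb inside Runx1 and past the second start (chr16:92683645-92684423 in WT), had 32 in WT and 10 in Tle4cKO. Its ratio of 0.312 (0.137 to 0.652) stands beside 0.692, its relative log2 ratio was -1.15, and the peak measured 779 bp in WT against 275 bp in Tle4cKO. Both were peaks of moderate or low height, whose pileups rest on few fragments.

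Strong peaks varied less than weak ones. In the 31 member pairs with a WT pileup of 75 or more, the relative log2 ratio ranged from -0.27 to 0.33 with an SD of 0.149, against 0.156 for all 28513 such pairs. In the 37 pairs with a WT pileup under 30 it ranged from -0.82 to 1.01 with an SD of 0.424, against 0.399 for all. The spread between member pairs was therefore wide where pileups were low, as in the lists at large.

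The highest peak of Runx1 lay 150 kb inside the gene, past the second start (chr16:92674734-92677160), where WT had 186 and Tle4cKO 138 at the summit and the relative log2 ratio was -0.15. Next came the peak 205 kb inside (chr16:92620506-92621759), with 184 and 133 and a relative log2 ratio of -0.16. A group of peaks lay in the intron after the first exon, which is known to hold a blood-specific enhancer of Runx1. At 25.2 kb from the first start the pileups were 90 and 66 (relative log2 ratio 0.03), at 35.9 kb 78 and 50 (-0.13), at 37.4 kb 60 and 43 (0.06), at 39.1 kb 91 and 54 (-0.26) and at 43.3 kb 72 and 50 (-0.01). The peak at 3.63 kb had 139 and 103 (-0.06). Values above and below 0 thus occurred side by side among the strong peaks of Runx1.

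In Runx2 the highest peak lay 37.2 kb inside the gene (chr17:44776597-44778014), where WT had 190 and Tle4cKO 138 at the summit and the relative log2 ratio was -0.18. It spans an annotated end of Supt3, a subunit gene of transcriptional coactivator complexes that overlaps Runx2, so the peak cannot be given to Runx2 alone. The next lay 150 kb inside (chr17:44663137-44664618), with 166 and 132 (-0.02), and 160 kb inside (chr17:44654142-44655150), with 133 and 94 (-0.11). Of the 13 pairs of Runx2 with a WT pileup of 75 or more, 9 lay below 0 and 4 above, within -0.27 to 0.33. The widest strong peak, 2872 bp in WT and 2537 bp in Tle4cKO at 78.6 kb, had 110 and 99 (0.26).

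The pairs of Runx3 and Cbfb spanned a narrower range, with no Runx3 pair under a WT pileup of 30 and only 4 pairs in Cbfb. At a WT pileup of 75 or more the SD was 0.130 for Runx3 and 0.129 for Runx1. Besides its starts, the highest peak of Runx3 lay 39.5 kb inside the gene (chr4:135158624-135160742), where WT had 157 and Tle4cKO 124 at the summit and the relative log2 ratio was -0.01. All 15 pairs of Runx3 lay between -0.13 and 0.38. In Cbfb the peak beyond the gene, 54.3 kb from the start (chr8:105224557-105226389), had 126 and 101 (0.07) and spans an annotated end of the neighbouring gene D230025D16Rik. Between these Cbfb had 1 intragenic pair of 26 and 19 (0.08) and 1 at the end of the gene of 21 and 17 (0.22).

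**Figure D4:**
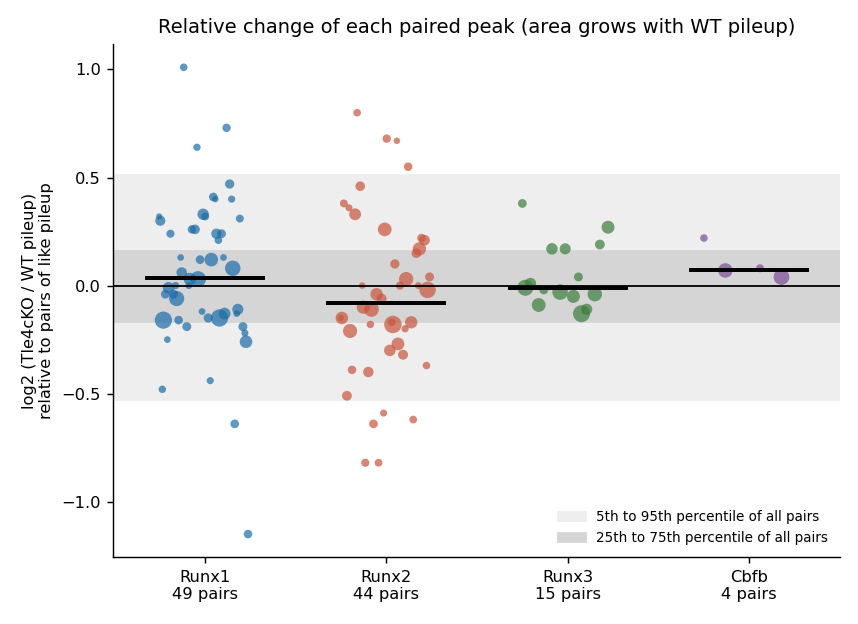
Relative log2 Tle4cKO to WT pileup ratio of each pair, by gene, with the gene's median as a black bar, point area growing with WT pileup, and grey bands for the 5th to 95th percentile (-0.53 to 0.51) and the 25th to 75th percentile (-0.17 to 0.16) of all pairs. Large points sit near 0 in every gene, and the points beyond the outer band are small ones of Runx1 and Runx2.

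Width and summit position were compared in the same pairs. The Tle4cKO peak was the narrower in 75 of the 112 pairs, and over all pairs in 69.5%. By gene this held for 27 of 49 pairs of Runx1, 34 of 44 of Runx2, 11 of 15 of Runx3 and 3 of 4 of Cbfb. The median width ratio was 0.978, 0.906, 0.957 and 0.933, against 0.931 over all pairs. In the 16 Runx2 pairs with a WT pileup under 30 it was 0.660, against 0.860 over all pairs of that height and 1.04 in the 19 such pairs of Runx1. The pileup ratio of these 16 Runx2 pairs was low as well, with a median of 0.673 against 0.789 over all pairs of that height. Their median relative log2 ratio was -0.16, with 4 above 0 and 9 below. Whether width differed apart from pileup was not tested. Summits of a pair lay about as far apart as over all pairs. Their median distance was 59.0 bp in Runx1, 43.0 in Runx2, 27.0 in Runx3 and 38.0 in Cbfb, and 44.0 over all pairs. Summits were at most 100 bp apart in 81 of the 112 pairs, 72.3%, and in 67.3% of all pairs. In the 9 strong pairs of Runx1 no distance exceeded 88 bp. The greatest distance, 668 bp, belonged to a Runx1 pair with pileups of 13 and 10.

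Some wide WT peaks were met by more than 1 Tle4cKO peak. Peaks that overlapped the other list without being in a pair numbered 2 in WT and 8 in Tle4cKO. Of the 8, 3 lay in Runx1, 4 in Runx2 and 1 in Runx3. Such peaks were the more numerous in Tle4cKO over the whole lists too. Either list had 92328 peaks in pairs. No overlap was found for 34872 peaks in the WT list of 128737, and for 30079 in the Tle4cKO list of 128129. The larger number in Tle4cKO is therefore not particular to the 4 genes. At chr17:44690049-44692064 in Runx2 the WT peak was 2016 bp wide with a pileup of 94. It was met by Tle4cKO peaks of 918 bp with a pileup of 56 and of 704 bp with 31. At chr4:135128282-135130340 in Runx3 the WT peak of 2059 bp and pileup 113 was met by Tle4cKO peaks of 1255 bp with 78 and of 401 bp with 29. These peaks count as shared.

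Genes named as RUNX cofactors or as RUNX target genes were described from a pair of fixed lists. The cofactor list is broad and also includes Runx1t1 and Myh11. Whether each listed gene works with RUNX proteins in these cells was not tested. The 23 cofactor genes held 104 WT-only of 322 WT peaks (32.3%) and 75 Tle4cKO-only of 301 Tle4cKO peaks (24.9%), beside 27.1% and 23.5% over all peaks. More WT-only peaks were found at 14 of them, more Tle4cKO-only peaks at 5 and equal numbers at 4. Over the 18079 protein-coding genes with at least 1 peak these shares were 39.4% for more WT-only and 27.6% for more Tle4cKO-only peaks. Among the 12413 annotated genes with at least 10 peaks in both lists together, 45.2% had more WT-only peaks. Neither set of genes was matched to the cofactor or target genes in peak number. The 214 pairs of the cofactor genes had a median relative log2 ratio of 0.00. Above the counting interval lay 0 pairs and below it 0, beside 0.683% and 0.615% of all pairs. The largest differences were at Crebbp, a histone acetyltransferase gene, with 18 WT-only and 9 Tle4cKO-only peaks, at Tle4, the gene floxed in the Tle4cKO mice, with 12 and 3, and at Ep300, the close relative of Crebbp, with 7 and 3. The WT-only peaks of Crebbp (18 of its 33 WT peaks) and Tle4 (12 of 22) are part of the 104, so the share of 32.3% is not even across the list.

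The 24 target genes held 36 WT-only of 176 WT peaks (20.5%) and 22 Tle4cKO-only of 164 Tle4cKO peaks (13.4%). Over all peaks these shares were 27.1% and 23.5%. More WT-only peaks were found at 12, more Tle4cKO-only peaks at 3 and equal numbers at 9, beside the same 39.4% and 27.6%. The 9 genes with equal numbers include Col10a1, which had 0 peaks in both lists. The 136 pairs of the target genes had a median relative log2 ratio of 0.00. Above the interval lay 1 pair and below it 0, beside 0.683% and 0.615% of all pairs. Meis1, a homeobox gene of blood progenitors, held 5 WT-only and 1 Tle4cKO-only peaks, Csf1r, the CSF-1 receptor gene, 0 and 3, and Bcl2l11, which encodes the cell death protein BIM, 7 and 5. The difference of 2 peaks at Bcl2l11 was shared by Cd4, Ctsg, Gfi1 and Itgal and, in the other direction, by Il3, and Bcl2l11 is named as the first by symbol.

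The cell type of the libraries was checked at marker genes by peaks within 1000 bp of an annotated gene end. All 10 macrophage markers had such a peak in both lists. Of 53 markers of the other 10 cell types 39 had one in WT and 36 in Tle4cKO, so that a peak alone does not set macrophages apart. RUNX genes are also active in lymphocytes and mast cells. T cell markers had a peak at 5 of 8 genes in WT and 6 of 8 in Tle4cKO, NK and ILC markers at 5 and 4 of 6, and mast cell markers at 1 of 5 in both, with Cpa3, Mcpt4, Fcer1a and Ms4a2 at 0. B cell markers had one at 5 of 5 and plasmacytoid dendritic cell markers at 4 of 4 in both. For WT and Tle4cKO, stroma markers had one at 6 and 5 of 6, monocyte markers at 4 and 3 of 4 and neutrophil markers at 4 and 3 of 5. Eosinophil markers had one at 2 of 4 and epithelium markers at 3 of 6 in both. The summed pileup of the highest such peaks was 1289 in WT and 1007 in Tle4cKO for macrophage markers, a ratio of 0.781. The ratio was 0.709 for NK and ILC, 0.711 for mast cell, 0.696 for neutrophil and 0.711 for epithelium markers. It was 0.820 for T cell markers and 0.802 for plasmacytoid dendritic cell markers. The lowest ratios were those of stroma (436 and 171, 0.392), eosinophil (116 and 44, 0.379), monocyte (213 and 96, 0.451) and B cell markers (311 and 176, 0.566). The part of such cells in the peaks of the RUNX genes was not tested.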

How the data were processed

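Each library's peak list was used as deposited, with position, width, summit and pileup per peak. Per the file headers, the pileup is the authors' signal at the summit, in whole numbers from 7 upwards. Per the submitters' processing notes, the authors worked on mm10 with MACS2 2.1.1, HOMER 4.7.2, Bowtie2 2.2.5, edgeR 3.28.1, cutadapt 1.14 and featureCounts 1.5.0, whose roles and order are not stated. Peak thresholds, duplicate handling, transposase shift, read totals and library scaling are among the facts not given in the sources used here, so the depth is unknown.

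Gene spans and promoter sequences came from RefSeq tables of GRCm38.p6. Overlaps (at least 1 bp) were checked with bedtools 2.31.1. Pairs were each other's highest overlapping peak, and the relative log2 ratio used 50 bins of summed pileup. Pileup ratios have exact Clopper-Pearson intervals at 95%, which are approximate for a maximum over a peak, and shares have Wilson intervals, except that a share of 0 has a limit of 3 counts. Flank size, overlap, pairing, peak height and width were varied as alternatives. Scripts were tested on simulated data. By the rule for named items, list-only peaks that reached the median pileup of their list, pairs outside their interval, peaks at starts, the 3 highest peaks per gene and, per list of cofactors or targets, the 3 genes with the largest difference in list-only peaks (ties by symbol) are named. Other peaks were chosen after their values were seen. The members and lists were chosen with earlier results of these data known.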

Additional observations from a re-analysis of the deposited data

How the results depend on the processing

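The counts of list-only peaks at the 4 genes, 34 WT-only and 22 Tle4cKO-only, stayed within 1.5 times without flanks, with 50 kb flanks, with an overlap of at least 50% of the shorter peak, with peaks within 500 bp counted as shared, and without peaks that overlap another protein-coding gene. They left that range with a pileup of at least 15 (17 and 3), among the 40000 highest peaks of each list (3 and 0), and among list-only peaks wider than 250 bp (18 and 14), since each of these keeps fewer peaks. WT-only peaks were the more numerous under each of these settings. The same direction held over the whole lists, with 34872 WT-only and 30079 Tle4cKO-only peaks, and a pileup of at least 15 is no equal cut. Shares over all peaks were not set beside these alternatives, so the direction is not shown to be particular to the 4 genes. The median relative log2 ratio of the pairs, 0.00, ranged from -0.006 with pairs made by closest summits to 0.035 with a pileup of at least 20 in both libraries. The median difference of percentile ranks was 0.558 points. For Runx2 the median of -0.079 was 0.003 with a pileup of at least 20 in both libraries. At Cbfb, 2 WT-only and 1 Tle4cKO-only peaks gave a difference of 0 without flanks. The settings on width and on other protein-coding genes were added after the data were seen. With 1 library per genotype, no library could be left out, and pileups under about 20 limit what a single pair can show.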

Other observations

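Within Runx1, 9 neighbouring pairs in a row had a relative log2 ratio above 0, from the peak at the second start over 35.0 kb towards the first start. Their values ran from 0.08 to 0.64 with a median of 0.30. The pileups ranged from 10 to 145 in WT and from 12 to 120 in Tle4cKO, and 0 of the 9 lay outside its counting interval. The stretch also held a WT-only peak of pileup 53 (chr16:92700135-92700341), which is in no pair. The stretch was chosen after its values were seen. Over the whole lists 126 such runs of at least 9 pairs occurred, holding 1.40% of all pairs. In Runx2, 5 neighbouring pairs in a row lay below 0, over 25.2 kb between 169 and 194 kb from the first start. Their values ran from -0.82 to -0.15 with a median of -0.59. All were weak, with pileups of 10 to 24 in WT and 9 to 12 in Tle4cKO, and 0 lay outside the counting interval. This run too was picked by its values, and no count of such runs over the whole lists is given.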
